A study of Mus musculus with 8 samples.

Results

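In wild-type mice, a set of 47 transcripts was abundant in leptotene and zygotene (LZ) spermatocytes and much lower in pachytene and diplotene (PD) spermatocytes. But for Defb45, these transcripts were also lower at PD than at LZ in cells labelled as Cnot4 knockouts (Cnot4-null). They were chosen from the measured values, as the mean FPKM (read fragments scaled to the length of the transcript and the total of the library) of the 2 libraries in each group. A gene belonged to the set when its wild-type (WT) LZ mean was at least 20 FPKM, its WT PD mean was at most 1/10 of that, and f was at most 0.15. The value f is the difference Cnot4-null PD minus WT PD divided by the difference Cnot4-null LZ minus WT PD. It is 0 when a transcript is as low in Cnot4-null PD as in WT PD, and 1 when it has stayed at its Cnot4-null LZ level. Symbols starting with Mir, Snora or Snord were left out. Of 23235 gene symbols, 727 met both WT conditions and are called WT-cleared genes. Among these, f was at most 0.15 for the 47 members and above it for 679, and it was undefined for 1. All 4 group means entered this rule, so differences of the members between groups are descriptions, and no test is read from them.

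RNA was sequenced from spermatocytes of C57BL/6 males sorted by Hoechst and propidium iodide fluorescence, which the study's methods place at 6 weeks of age. The 4 groups were WT LZ, Cnot4-null LZ, WT PD and Cnot4-null PD, with 2 libraries each. The Cnot4-null cells came from Cnot4 fl/fl;Stra8-Cre males, in which a Cre expressed from the Stra8 promoter in premeiotic germ cells removes exon 2 of the floxed gene, so that other cells of the testis keep it. The libraries of a group are described as biological replicates. The labels describe TruSeq libraries from total RNA, whereas the methods describe cDNA primed with oligo-dT from few sorted cells. Which of them made these values is not settled. Priming with oligo-dT reads mRNAs by their poly(A) tails, so it bears on what FPKM measure where tails can differ and for histone mRNAs, which mostly lack tails.

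The deposited values hold no read counts. From the steps of low values, and taking the first WT LZ library as 1, the relative depth of the other was 1.06, those at PD in WT were 1.2 and 1.32, and the Cnot4-null libraries stood at 0.936 and 1.06 at LZ and 1.00 and 0.824 at PD. They differ in order from the totals of reads that the study lists, so they are uncertain, and why was not tested.

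Spermatocytes in leptotene and zygotene break their DNA, pair homologous chromosomes and begin to repair the breaks by recombination. On entry into pachytene the unpaired X and Y chromosomes are silenced together in the sex body (meiotic sex chromosome inactivation), while many transcripts of early prophase are degraded. CNOT4 is a RING-finger E3 ubiquitin ligase that associates with the CCR4-NOT complex, whose deadenylase subunits shorten the poly(A) tails of mRNAs ahead of their decay.

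Cnot4 itself was read at 36.0 and 34.9 FPKM at LZ and 76.6 and 73.1 at PD in WT, and at 43.2 and 34.6 at LZ and 65.9 and 53.5 at PD in Cnot4-null cells. At PD each Cnot4-null library was below each WT library, by less than limma could call after Benjamini-Hochberg adjustment (log2 difference -0.33, SE 0.20, adjusted p = 0.192), and the LZ groups overlapped. A value summed over the whole transcript also counts mRNA that lacks only the deleted exon, so it does not check the deletion.

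In WT, the members fell from LZ to a median of 1.31% of their LZ mean at PD, and in Cnot4-null to a median of 12% (quartiles 8.53% and 15.5%). Over all WT-cleared genes the median in Cnot4-null was 42.6%. The members' f had a median of 0.105 with quartiles of 0.0740 and 0.132, beside a median of 0.402 and quartiles of 0.279 and 0.568 over the WT-cleared genes. Against Cnot4-null LZ, 46 of the 47 were called lower in Cnot4-null PD by limma at an adjusted p under 0.05, where 18.2% of the 15899 genes with an FPKM above 1 in at least 1 library were called lower; all 47 passed that filter. These counts follow from the rule. In these bulk samples, fewer cells holding a transcript and less of it per cell cannot be told apart.

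**Figure D1:**
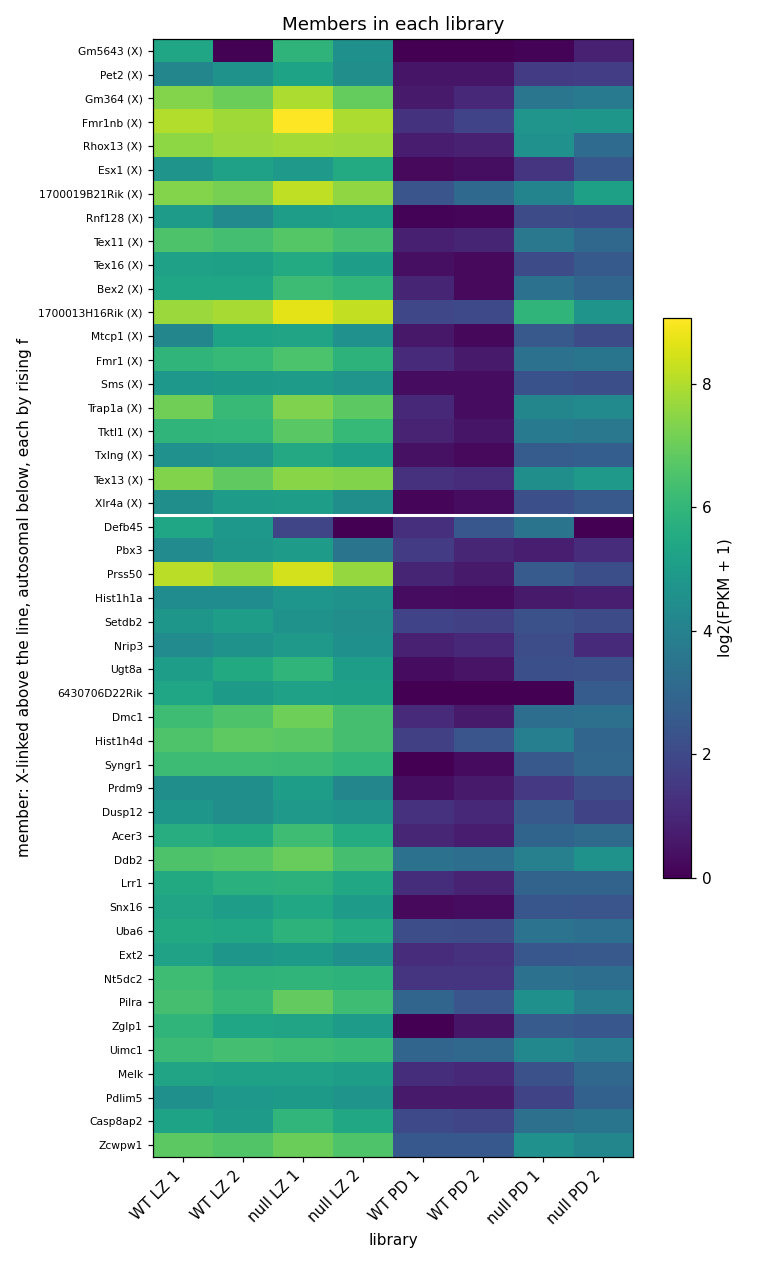
The 47 members (rows, X-linked above the white line and autosomal below it, each ordered by rising f) in the 8 libraries (columns), as log2(FPKM + 1). LZ libraries of both genotypes are light, WT PD libraries are darkest, and Cnot4-null PD libraries lie between them for most members.

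The rule allowed a part of the LZ level to remain in Cnot4-null cells. In 45 of the 47 members both Cnot4-null PD libraries lay above both WT PD libraries, an arrangement found for 58.2% of all genes with an FPKM above 1 in a library. The Cnot4-null PD mean was at least 2 times the WT PD mean in 44 members, at least 5 times in 30, at least 10 times in 24 and at least 20 times in 10. Measured within Cnot4-null cells alone, 15 members fell by 10-fold or more from LZ to PD, and no WT-cleared gene with f above 0.15 did. The remaining 32 members stayed above 10% of their Cnot4-null LZ mean. As the rule used these means and the levels are as deposited, nothing is read from these counts. By percent left the members were also not all below the other WT-cleared genes, of which the lowest kept 16.5%, while Casp8ap2 kept 19%, and Uimc1 and Ddb2, named after their values were seen, kept 21.8% and 18.7%. In absolute terms the level left was low, with a Cnot4-null PD mean under 5 FPKM for 21 members and under 10 FPKM for 34.

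**Figure D2:**
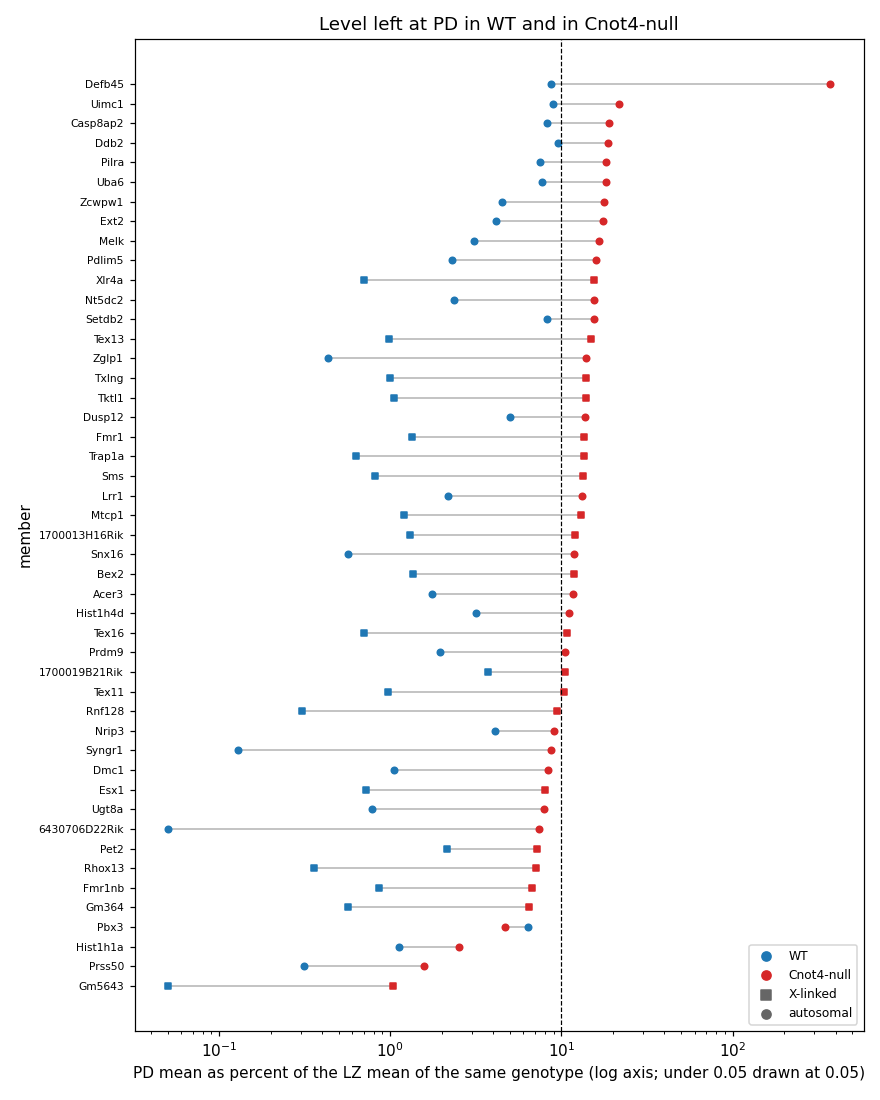
PD mean as a percent of the LZ mean of the same genotype (log axis) for each member, in WT (blue) and Cnot4-null (red), with squares for X-linked and circles for autosomal members. The dashed line marks 10%, all WT points lie at or left of it, and 15 of the Cnot4-null points do. Defb45, at 373% in Cnot4-null, is a member only because its f has a negative denominator.

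In the plot of percent left at PD, the distance between the genotypes was widest for members with almost nothing left in WT PD, and Pbx3 was the one whose Cnot4-null point lay below its WT point.

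Of the members with a known part in meiotic recombination, 4 belonged to lists of recombination genes written for this comparison. Prdm9, the histone methyltransferase whose zinc fingers place recombination hotspots, went from 21.8 and 21.7 FPKM at LZ to 0.275 and 0.576 at PD in WT, and from 32.5 and 17.0 to 1.81 and 3.42 in Cnot4-null cells. Zcwpw1, which reads the histone marks that PRDM9 leaves, went from 110 and 95.7 FPKM at LZ to 4.71 and 4.60 at PD in WT, and from 129 and 93.3 to 22.7 and 17.0 in Cnot4-null cells. For both genes the LZ groups overlapped, and the Cnot4-null PD libraries were above the WT PD libraries and far below every LZ library. The log2 difference at PD was 1.31 (SE 0.37) for Prdm9 and 1.87 (SE 0.24) for Zcwpw1. For Prdm9 it was -0.07 after quantile normalization, so its direction depended on the scaling.

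Zcwpw1 (chr5:138229026-138263849, mm9) runs toward Pilra (chr5:138263180-138277506), a gene of a paired immunoglobulin-like receptor that was also a member and is named here after its values were seen. The annotated spans overlap by 670 bases on opposite strands. As the sources do not say that strand was used, reads from the shared part cannot be assigned. Pilra went from 83.6 and 64.1 FPKM at LZ to 6.82 and 4.18 at PD in WT, and from 118 and 75.1 to 22.1 and 13.2 in Cnot4-null cells, so its values ran beside those of Zcwpw1 in all 4 groups.

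The strand-exchange members were Dmc1, the meiosis-specific recombinase that pairs broken ends with the homolog, and Tex11, an X-linked crossover factor. Dmc1 was left at 8.58 and 9.22 FPKM in Cnot4-null PD, from 132 and 81.8 at LZ, while WT PD held 1.16 and 0.590. Tex11 (chrX:98033987-98255006) was left at 11.4 and 7.45 FPKM in Cnot4-null PD, from 102 and 80.5 at LZ, while WT PD held 0.757 and 0.924. Both were therefore near 1/10 of their LZ level in Cnot4-null PD in each library, and about 10 times the WT PD level.

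A promoter is shown for Prdm9 because a short upstream window of this gene carries a pair of the searched motifs side by side. The window of another start of the gene (chr17:15563282-15563581) held none of the searched motifs, and the choice was made after the matches were seen. The sequence is the 200 bases before the start with the pair, in RefSeq's promoter table (GRCm38.p6, chr17:15564355-15564554, minus strand). TTCCCGC and CNCCTCAG are in capitals and share 1 base, the C at position -41 from that start.
Prdm9: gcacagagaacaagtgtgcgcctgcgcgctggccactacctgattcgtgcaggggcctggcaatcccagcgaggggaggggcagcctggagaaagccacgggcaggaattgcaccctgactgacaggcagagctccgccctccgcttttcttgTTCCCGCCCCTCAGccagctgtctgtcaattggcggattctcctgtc

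Among genes on the X chromosome known from germ cells, 6 of the 57 listed and measured were members, and 14 of the 57 were WT-cleared. Rhox13 (chrX:35474396-35483143), a homeobox gene of the reproductive homeobox cluster, went from 181 and 206 FPKM at LZ to 0.610 and 0.782 at PD in WT, and from 225 and 212 to 22.9 and 7.92 in Cnot4-null cells. Tex13 (chrX:137342846-137347972) went from 163 and 113 FPKM at LZ to 1.47 and 1.23 at PD in WT, and from 173 and 163 to 21.8 and 28.2 in Cnot4-null cells. Tktl1, a transketolase-like gene, went from 59.8 and 60.9 FPKM at LZ to 0.847 and 0.414 at PD in WT, and from 106 and 66.7 to 12.7 and 11.3 in Cnot4-null cells. All 3 stood far above WT PD in both Cnot4-null PD libraries, and the libraries of Rhox13 differed by nearly 3 times between themselves. Their log2 differences at PD were 3.11 (SE 0.42), 3.46 (SE 0.24) and 3.01 (SE 0.27), and stayed positive under each scaling. Tex16 was lower, at 35.7 and 34.9 FPKM in WT LZ and 3.29 and 4.97 in Cnot4-null PD. Xlr4a, of the X-linked lymphocyte-regulated family, was at 21.8 and 30.7 FPKM in WT LZ and 3.61 and 4.79 in Cnot4-null PD, with f of 0.149. Tex13 and Xlr4a have close relatives on the X, and reads could be divided among them, so these values are uncertain. The family members Xlr4b, Xlr4c, Xlr5a and Xlr5b were WT-cleared too, with f of 0.348, 0.198, 0.434 and 0.409.

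Across the whole list of X-linked germ cell genes, 32 of the 48 that passed the filter were called higher in Cnot4-null PD than in WT PD by limma and 0 lower, where 41.6% of all genes were called higher and 12% lower, with a median log2 difference of 2.2. Under quantile normalization 25 of 47 were called higher and 3 lower (18.7% and 26.8% of all genes), and with each library rescaled to the same median 27 of 47 higher and 1 lower (23.3% and 41.2%). Its 14 WT-cleared genes had f from 0.0676 to 0.773. Esx1, an X-linked homeobox gene listed among spermatogonial markers, went from 24.7 and 35.4 FPKM at LZ to 0.183 and 0.252 at PD in WT, and from 28.6 and 46.1 to 1.56 and 4.47 in Cnot4-null cells. Its Cnot4-null PD libraries differed by almost 3 times and lay above both WT PD libraries.

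Of the X-linked members with the highest WT LZ means, 5 were in no list. Fmr1nb (chrX:66015014-66057742), a cancer/testis antigen gene next to Fmr1, went from 258 and 215 FPKM at LZ to 1.51 and 2.55 at PD in WT, and from 533 and 245 to 25.6 and 26.7 in Cnot4-null cells. 1700013H16Rik (chrX:51046078-51061008) went from 206 and 233 FPKM at LZ to 2.76 and 2.99 at PD in WT, and from 411 and 299 to 59.9 and 25 in Cnot4-null cells. Gm364 (chrX:54662331-54741944) went from 166 and 128 FPKM at LZ to 0.590 and 1.08 at PD in WT, and from 247 and 120 to 10.8 and 12.8 in Cnot4-null cells. In 1700013H16Rik the Cnot4-null LZ libraries lay above both WT LZ libraries, in Gm364 they lay on either side of them, and in Fmr1nb Cnot4-null LZ replicate 1 was far above the other 3 LZ libraries. Trap1a, which encodes the tumour rejection antigen P1A, went from 136 and 68.4 FPKM at LZ to 1.06 and 0.242 at PD in WT, and from 158 and 108 to 16.8 and 19 in Cnot4-null cells. 1700019B21Rik, annotated as a transcript with no coding sequence, went from 167 and 147 FPKM at LZ to 4.26 and 7.52 at PD in WT, and from 291 and 188 to 15.9 and 34.3 in Cnot4-null cells. With Rhox13 and Tex13, these made up 7 of the 10 members with a WT LZ mean of at least 100 FPKM.

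Promoter windows are shown for 4 of these X-linked members in which a searched motif was found, chosen after the matches were seen. All are the 200 bases before a start in the RefSeq table (GRCm38.p6), written along the gene's own strand, with motif letters in capitals. Fmr1nb (chrX:68761639-68761838, plus strand) has CNCCTCAG on the opposite strand, Gm364 (chrX:57408949-57409148, plus strand) has CACGTG and GCATGCGC, 1700013H16Rik (chrX:53757832-53758031, minus strand) has GCATGCGC, and Esx1 (chrX:137120327-137120526, minus strand) has CACGTG.
Fmr1nb: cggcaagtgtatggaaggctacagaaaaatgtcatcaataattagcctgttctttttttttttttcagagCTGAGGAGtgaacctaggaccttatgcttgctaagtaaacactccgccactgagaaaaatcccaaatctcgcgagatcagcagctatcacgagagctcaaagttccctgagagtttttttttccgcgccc
Gm364: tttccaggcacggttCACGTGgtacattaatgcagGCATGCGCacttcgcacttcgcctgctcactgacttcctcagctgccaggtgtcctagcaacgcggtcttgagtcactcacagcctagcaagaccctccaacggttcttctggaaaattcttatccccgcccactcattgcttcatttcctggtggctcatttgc
1700013H16Rik: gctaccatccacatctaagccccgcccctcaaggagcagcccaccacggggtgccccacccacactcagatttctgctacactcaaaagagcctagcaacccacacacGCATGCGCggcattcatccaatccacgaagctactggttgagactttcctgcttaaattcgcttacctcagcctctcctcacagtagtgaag
Esx1: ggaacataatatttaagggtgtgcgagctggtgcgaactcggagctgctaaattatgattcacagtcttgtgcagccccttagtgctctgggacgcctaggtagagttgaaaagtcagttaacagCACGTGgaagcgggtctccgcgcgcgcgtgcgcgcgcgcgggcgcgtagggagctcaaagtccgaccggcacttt

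On the autosomes, Prss50, a testis protease gene, was the clearest case of loss in both genotypes. It went from 275 and 200 FPKM at LZ to 0.921 and 0.563 at PD in WT, and from 349 and 197 to 5.08 and 3.47 in Cnot4-null cells. Its Cnot4-null PD mean was 1.57% of its Cnot4-null LZ mean, with f of 0.0130, and still 5.77 times the WT PD mean. The log2 difference of Prss50 at PD was 1.59 as deposited, and limma called it. It was 0.12 after quantile normalization and 0.72 with each library rescaled to the same median, and called under neither. Its promoter is shown as that of the member with the highest WT LZ mean (GRCm38.p6, chr9:110857764-110857963, plus strand, 200 bases before the start), with CNCCTCAG on the opposite strand in capitals.
Prss50: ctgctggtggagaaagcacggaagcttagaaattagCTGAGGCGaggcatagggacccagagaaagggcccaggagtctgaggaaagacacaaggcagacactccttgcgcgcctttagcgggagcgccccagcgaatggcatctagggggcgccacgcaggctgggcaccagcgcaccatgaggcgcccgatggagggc

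Histone genes gave 2 members. The histone genes Hist1h4c and H1f0, named after their values were seen, were WT-cleared too, with f of 0.435 and 0.393. Hist1h1a, for the linker histone H1.1, went from 20.1 and 20.3 FPKM at LZ to 0.236 and 0.216 at PD in WT, and from 26.0 and 24.1 to 0.571 and 0.696 in Cnot4-null cells. Its Cnot4-null PD libraries lay above the WT PD libraries, at under 1 FPKM in every PD library, and limma did not call the difference. Hist1h4d was at 94.1 and 112 FPKM in WT LZ and 14 and 6.83 in Cnot4-null PD, against 2.31 and 4.24 in WT PD, and as the histone H4 genes are nearly identical its reads could belong to other copies. Casp8ap2, a protein needed for the processing of histone pre-mRNA, went from 37.6 and 31.3 FPKM at LZ to 2.96 and 2.71 at PD in WT, and from 61.8 and 41.0 to 9.11 and 10.4 in Cnot4-null cells. Cnot4-null was above WT in each library of both stages for this gene.

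For 40 of the 47 members limma called a higher value in Cnot4-null PD than in WT PD, where 41.6% of all genes tested were called higher. The rule used this contrast, and nothing is read from the count. The 7 others were Hist1h1a, Setdb2, Nrip3, Pbx3, Gm5643, Defb45 and 6430706D22Rik, the last named after its values were seen. Setdb2, of the SET domain family of histone methyltransferases, went from 26.7 and 31.6 FPKM at LZ to 2.53 and 2.28 at PD in WT, and from 24.2 and 21.1 to 3.78 and 3.21 in Cnot4-null cells. Its log2 difference at PD was 0.40 (SE 0.22), and -1.04 after quantile normalization and -0.69 with each library rescaled to the same median, so its direction turned under both scalings. Pbx3, a TALE-class homeobox gene, went from 19.7 and 26.6 FPKM at LZ to 1.99 and 0.965 at PD in WT, and from 30.6 and 10.2 to 0.709 and 1.2 in Cnot4-null cells. Its PD groups overlapped at about 1 FPKM. Nrip3 was at 3.43 and 1.17 FPKM in Cnot4-null PD and 0.760 and 1.01 in WT PD, and Pet2 on the X at 2.03 and 2.14 against 0.418 and 0.442, from LZ means of 21.5 and 20.1 FPKM in WT.

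The place of 3 members in the set was uncertain. Defb45, a beta-defensin gene, went from 39.7 and 27.2 FPKM at LZ to 1.39 and 4.46 at PD in WT, and from 2.71 and 0 to 10.1 and 0 in Cnot4-null cells. It was low in Cnot4-null LZ already, below its WT PD mean, which gives f a negative denominator and a value of -1.36. Gm5643, annotated as a pseudogene, was at 40.3 and 0.0415 FPKM in WT LZ and 58.1 and 22.2 in Cnot4-null LZ, and its WT LZ mean of 20.2 FPKM rests on a single library. 6430706D22Rik was near 0 in Cnot4-null PD replicate 1 and at 5.20 FPKM in replicate 2. The annotation gives it the span of Hjurp and of A730008H23Rik, on the same strand, so the reads of a single place could be divided among 3 symbols. A730008H23Rik was under 1 FPKM in every library. Hjurp, looked up for this reason, was at 7.50 and 4.81 FPKM at LZ and 19.9 and 18.6 at PD in WT, so the fall of 6430706D22Rik cannot be told apart from a different division of the reads.

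The other members, named after their values were seen so that each is accounted for, were 6 X-linked and 16 autosomal genes. The X-linked ones were Fmr1, for an RNA-binding protein that represses translation, Sms, for spermine synthase, Rnf128, a ubiquitin ligase gene, Bex2, Mtcp1 and Txlng. Their WT LZ means were between 24.2 and 62.4 FPKM, their WT PD means between 0.0749 and 0.830, and their Cnot4-null PD means between 3.14 and 9.98, or 12 to 42 times WT PD. Fmr1 ends 43.9 kb before Fmr1nb begins, and both were members. The autosomal ones were the DNA damage genes Ddb2 and Uimc1, the ubiquitin-activating enzyme gene Uba6, the lipid enzyme genes Acer3 and Ugt8a, the kinase gene Melk, the phosphatase gene Dusp12, the heparan sulfate synthesis gene Ext2, the zinc finger gene Zglp1, and Lrr1, Syngr1, Snx16, Nt5dc2, Pdlim5, Pilra and 6430706D22Rik. WT LZ means of these 16 ran from 24.2 to 95.1 FPKM and Cnot4-null PD means from 2.60 to 19.3, and f from 0.0736 to 0.140. Ddb2, the highest of them at both, overlaps Acp2 by 2527 bases on the opposite strand. Txlng, at 5.21 and 5.46 FPKM in Cnot4-null PD, overlaps Rbbp7 by 174 bases on the opposite strand. Rbbp7 was at 132 and 179 FPKM in Cnot4-null PD, 7.49 and 1.65 in WT PD, and between 131 and 156 in the LZ libraries. What part reads of Rbbp7 had in the values of Txlng was not tested.

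Membership was decided by small margins at each limit. Just inside the limit on f were Casp8ap2 and Zcwpw1, both at 0.142, and Xlr4a at 0.149, and just outside it were Vma21, a V-ATPase assembly factor on the X, at 0.157, the neuropeptide gene Gal at 0.158 and the replication fork gene Tipin at 0.159. Ap1s2, with f of 0.144, missed the WT LZ limit at 19.98 FPKM, and Orc6, with f of 0.118, missed the limit on WT PD at 10.6% of WT LZ; these were named after their values were seen. Read in single Cnot4-null PD libraries, f was at most 0.15 for 43 members with replicate 1, for 40 with replicate 2 and for 36 with each of them.

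Members were also chosen in 1 library of each group and their f read in the other. This describes the genes so chosen and is no further evidence for the 47, whose choice used all libraries. Replicate 1 alone gave 88 genes, of which 40 were among the 47. In replicate 2 their f had a median of 0.208, and it was at most 0.15 for 30 of the 87 with a value, against a median of 0.523 and 13 of 727 (1.79%) for genes cleared in WT replicate 1 with a higher f there. Replicate 2 alone gave 42 genes, 30 of them among the 47. Their f in replicate 1 had a median of 0.109 and was at most 0.15 for 33 of 42, against a median of 0.331 and 51 of 648 (7.87%) for the others. Both choices shared 25 genes, among them Prss50, Rhox13, Fmr1nb, Gm364, Dmc1, Tex11, Zcwpw1, Esx1 and Hist1h1a. Over all WT-cleared genes f itself differed between the libraries, with a median of 0.334 from Cnot4-null PD replicate 1 and 0.450 from replicate 2. These counts were not tested.

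At LZ, limma called 0 of the 47 members between the genotypes, where 0.0692% of all genes were called higher and 0.0252% lower. At an unadjusted p under 0.05 there were 3 members, and 1013 of all genes (6.37%). The Cnot4-null LZ mean was above the WT LZ mean in 35 members. It was above in 19 of the 20 X-linked members, with a median ratio of 1.27, and in 16 of the 27 autosomal ones, with a median ratio of 1.08. Cnot4-null LZ enters the denominator of f, so a high value there favours membership. For 29 members the genotype difference at PD was called larger than that at LZ, where 26% of all genes were, with a median of 1.70 on the log2 scale over the members and 0.64 over all genes. Of all WT-cleared genes 95.9% were called, and as the rule used these values nothing is read from the difference. The count became 7 members after quantile normalization, where 10.1% of all genes were called larger at PD, and 15 with equal medians, where 13.9% were. As deposited, without WT PD replicate 1 the count was 15, without WT PD replicate 2 it was 13, and without Cnot4-null LZ replicate 2 it was 19, where 11.4%, 10.9% and 15.4% of all genes were called in either direction, against 30% with all libraries.

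A feature the rule did not use was position. Of the 47 members, 20 (42.6%) lay on the X chromosome and the other 27 on 12 autosomes, with none on the Y. The X held 110 of the 672 other WT-cleared genes with a position (16.4%), 138 of the 4184 genes with a WT LZ mean of at least 20 FPKM (3.30%) and 648 of the 15218 genes past the filter (4.26%). The share on the X was 8 of 17 for f between 0.05 and 0.1, 11 of 25 (44%) between 0.1 and 0.15, and 9 of 47 (19%) between 0.15 and 0.2, and stayed between 14.6% and 17.9% in each bin of higher f. Among the 5 genes with f under 0.05 only Gm5643 was X-linked. The X-linked members were spread along the chromosome, from Rhox13 to Txlng.

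**Figure D3:**
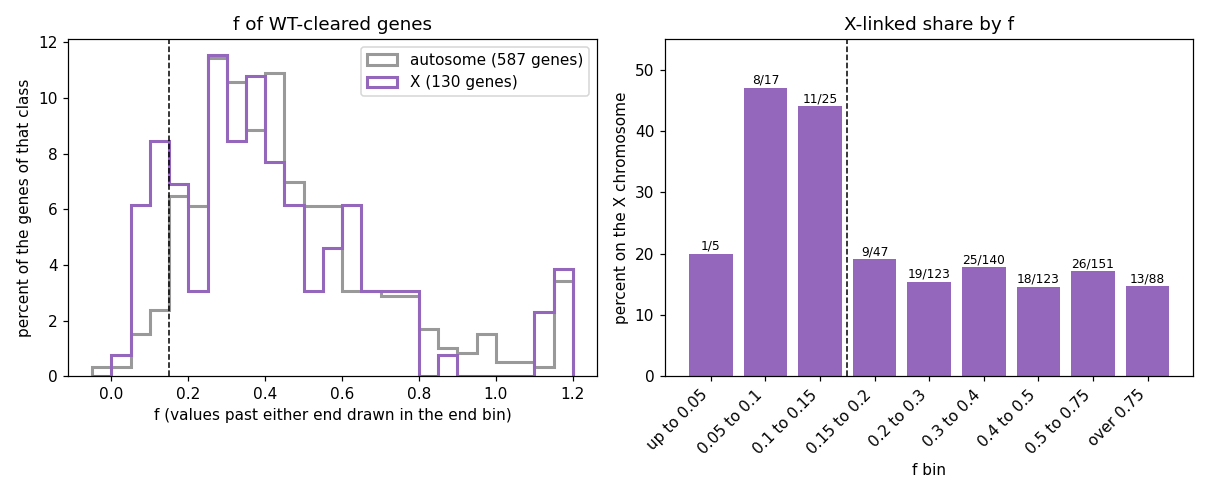
Left, the distribution of f over WT-cleared genes on the X (purple, 130 genes) and on autosomes (grey, 587 genes with a value), as a percent of each. Right, the percent of WT-cleared genes on the X in bins of f, with counts above the bars and the limit of 0.15 dashed. The X share was 42.6% over the members and 16.4% over the WT-cleared genes with higher f.

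The plots of f by chromosome show a larger share on the X at the low end of f, while the rest of the X distribution lay close to that of the autosomes. X-linked genes were WT-cleared far more often, 130 of 138 (94.2%) against 588 of 4044 autosomal genes (14.5%) with a WT LZ mean of at least 20 FPKM. Their f had a median of 0.359 on the X and 0.407 on the autosomes, and it was at least 0.5 for 30% and 34%. So 15.4% of the WT-cleared X genes and 4.59% of the autosomal ones were members. Set against WT PD, the X genes stood higher. Among WT-cleared genes the Cnot4-null PD mean was a median of 24.7 times the WT PD mean on the X and 9.62 times on the autosomes. Among members the median log2 difference at PD was 2.41 for X-linked and 1.48 for autosomal ones. With WT LZ in place of Cnot4-null LZ in the denominator of f, 14 of 44 members were X-linked (31.8%, against 17.2% of the other WT-cleared genes), and with each library rescaled to the same median 32 of 109 (29.4%, against 24.5%). The X took 2.57% and 2.59% of the summed FPKM at LZ and 0.258% and 0.234% at PD in WT, and 2.73% and 2.65% at LZ and 1.53% and 2.08% at PD in Cnot4-null cells. The share was thus lowest in WT PD, and Cnot4-null PD lay between WT PD and the LZ libraries. No set test was made of the share on the X.

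Other genes of the same pathways showed what was not in the set. Of 10 measured genes of break formation and hotspots, 4 were WT-cleared, Prdm9 and Zcwpw1 as members, and Hells at f of 0.197 and Tex15 at 0.354. Of 28 genes of strand exchange and recombination, 4 were WT-cleared, Dmc1 and Tex11 as members, and Rpa2 at 0.238 and Trip13 at 0.289. None of the 3 WT-cleared genes of meiotic entry was a member, where Dazl, Stra8 and Crabp1 had f of 0.216, 0.379 and 0.449. The Stra8 transcript, which marks meiotic entry, still reached 228 and 149 FPKM in Cnot4-null PD. The 12 WT-cleared replication genes had f from 0.159, for Tipin, to 0.613, for Cdt1, and also gave no member. The chromosome axis (Smc3 at 0.289 and Sgol1 at 0.221), the synaptonemal complex centre (Syce2 at 0.258), mitosis (Mki67 at 0.310) and the piRNA pathway (Fkbp6, Tex19.1 and Dnmt3b from 0.415 to 0.866) gave none either, and no gene of the CCR4-NOT list was WT-cleared.

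At PD, 7 of the 10 break and hotspot genes were called higher in Cnot4-null by limma and 1 lower, where 41.6% of all genes were called higher and 12% lower. Under either rescaling 3 were higher and 2 lower, where quantile normalization gave 18.7% and 26.8% of all genes and equal medians 23.3% and 41.2%. Of the 28 recombination genes 10 were called higher and 4 lower, which became 5 and 9 after quantile normalization and 3 and 18 with equal medians, with list medians of 0.31, -0.42 and -0.92, each below the median of all genes (0.66, -0.14 and -0.30). All 4 members in these lists were called higher as deposited. With equal medians Prdm9 (adjusted p = 0.144) and Zcwpw1 (adjusted p = 0.0547) were no longer called by limma after Benjamini-Hochberg adjustment.

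Transcript structure was read from GENCODE vM1 for the longest coding transcript of each of 45 members. The median length was 2578 bases, beside 2364 for the other WT-cleared genes and 2767 for all genes past the filter. The 3′UTR had a median of 620 bases, beside 872 and 902, the 5′UTR 116 bases, beside 162 and 165, and the coding sequence 1173 bases, beside 1074 and 1260. GC content had a median of 45.9%, beside 49.1% and 50.3%. When the median over all coding transcripts of a gene was taken instead, the members had 1540 bases in all, beside 1775 for the other WT-cleared genes, so they turned from longer to shorter than these. The 3′UTR was then 324.5 bases, beside 539, the 5′UTR 100 bases, beside 135, the coding sequence 891 bases, beside 858.5, and GC content 46.6%, beside 50%. These are descriptions with no test.

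Promoter windows of 300 bases, from 250 before to 50 after a start, were found in the RefSeq table for 39 of the 47 members. CACGTG, the E-box, was in a window of 8 of the 39 (20.5%), beside 16.7% of the other WT-cleared genes, 11% of the genes past the filter and 8.09% of all 27025 symbols in the table. TTCCCGC was in 5 (12.8%), beside 13.1%, 8.92% and 5.29%, CNCCTCAG in 6 (15.4%), beside 14.3%, 11% and 9.12%, and GCATGCGC in 5 (12.8%), beside 8.09%, 5.53% and 3.05%. TGACGTCA was in 0, beside 3.96%, 3.36% and 2.03%, and TATAAA in 4 (10.3%), beside 9.29%, 9.80% and 15.7%. Both strands were searched for all 6 motifs, and a match says only that the letters are there. The median GC content of the members' windows was 58%, beside 62% for the other WT-cleared genes.

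Markers of other cell types differed strongly between the PD groups. Leydig cell genes, of which 10 of 10 were above 1 FPKM in both Cnot4-null PD libraries, summed to 26.2 and 17.2 FPKM at LZ and 135 and 9.85 at PD in WT, and to 14.3 and 22.4 at LZ and 11306 and 24354 at PD in Cnot4-null cells, most of it Insl3. Spermatid genes summed to 2002 and 1781 FPKM at LZ and 1147 and 920 at PD in WT, and to 4312 and 848 at LZ and 18098 and 8970 at PD in Cnot4-null cells, with Prm1 the highest there. Pachytene genes, with Ldhc the highest, went the other way at PD, at 22721 and 21923 FPKM in WT and 10479 and 4030 in Cnot4-null, after 492 and 706 in WT LZ and 514 and 288 in Cnot4-null LZ. The Cnot4-null PD libraries thus held more RNA of Leydig and spermatid markers and less of pachytene markers than the WT PD libraries. By limma 10 of 10 Leydig genes were called higher and 0 lower, 11 of 14 spermatid genes higher and 1 lower, and 0 of 19 pachytene genes higher and 9 lower. Among all genes 41.6% were called higher and 12% lower. The median of each of these 3 lists kept its direction under each scaling. Sertoli cell genes summed to 546 and 644 FPKM at LZ and 78.4 and 189 at PD in WT, and to 189 and 151 at LZ and 830 and 1535 at PD in Cnot4-null cells, most of it Defb19, while the Sertoli marker Fshr was at 0 in all 4 PD libraries. Of 15 Sertoli genes past the filter 8 were called higher and 1 lower, with a median log2 difference of 1.07. After quantile normalization these were 3 and 2 of 14 with a median of -0.30, where 18.7% of all genes were higher and 26.8% lower. With equal medians they were 6 and 3 of 15 with a median of 0.60, where 23.3% and 41.2% were. Macrophage genes summed to 64.5 and 28.8 FPKM at LZ and 25.4 and 16.4 at PD in WT, and to 66.7 and 18.5 at LZ and 385 and 266 at PD in Cnot4-null cells, with Aif1 the highest.

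Spermatogonial genes, which LZ libraries also held, summed to 1015 and 941 FPKM at LZ and 83.0 and 92.8 at PD in WT, and to 784 and 976 at LZ and 533 and 718 at PD in Cnot4-null cells, with Uchl1 the highest there. Genes listed as LZ markers, 2 of them members, summed to 2951 and 3128 FPKM at LZ and 1514 and 1574 at PD in WT, and to 5507 and 3235 at LZ and 1440 and 828 at PD in Cnot4-null cells, with Sycp3, which WT PD cells also express, the highest at PD. So spermatogonial markers were higher in Cnot4-null PD than in WT PD and the LZ list as a sum was not. Of 28 spermatogonial genes 23 were called higher and 0 lower at PD by limma, and of 13 LZ genes 6 higher and 3 lower. Among all genes 41.6% were called higher and 12% lower. With equal medians the counts of LZ genes became 3 and 6, where 23.3% of all genes were called higher and 41.2% lower. Peritubular myoid genes summed to between 7.35 and 12.4 FPKM in the LZ libraries, to 10.2 and 7.74 in WT PD and to 76.6 and 326 in Cnot4-null PD, with Acta2 the highest. Endothelial genes summed to between 20.7 and 25.3 FPKM in LZ, to 0.298 and 0.195 in WT PD and to 10.3 and 18.7 in Cnot4-null PD, with Egfl7 the highest there. Red blood cell genes summed to under 1 FPKM in each library, with all 4 globin genes at 0 at PD. By limma 5 of 9 macrophage genes, 6 of 6 myoid genes and 2 of 3 endothelial genes past the filter were called higher in Cnot4-null PD, and 0 lower. The share of all genes called higher was 41.6%. After quantile normalization the counts called higher were 1 of 8, 5 of 6 and 1 of 2, where 18.7% of all genes were. What part cells of other types had in the levels left of the members was not tested.

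**Figure D4:**
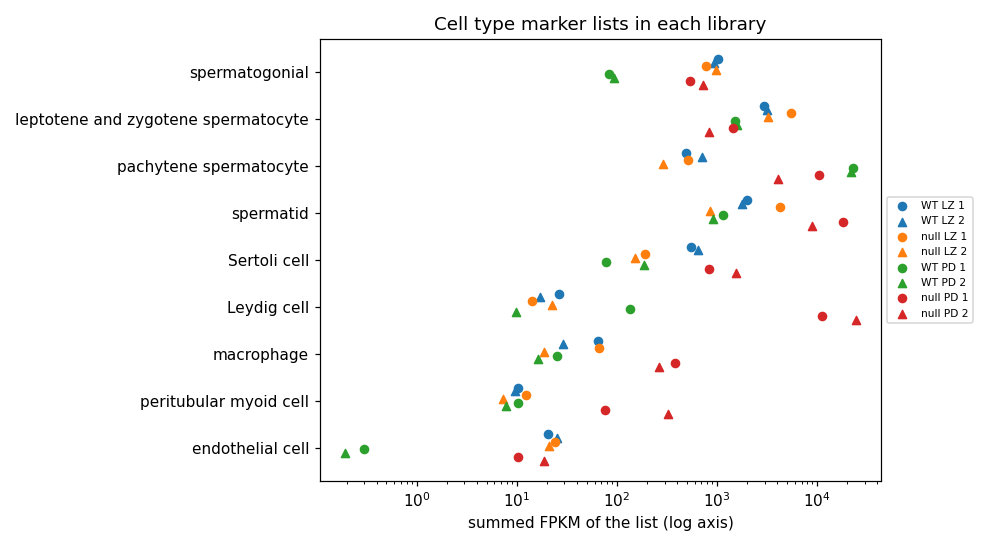
Summed FPKM (log axis) of the genes in each marker list, for each of the 8 libraries (circles for replicate 1, triangles for replicate 2). Leydig markers reached 11306 and 24354 FPKM in Cnot4-null PD and at most 135 in any other library, and pachytene markers were lower in Cnot4-null PD than in WT PD.

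The scale of the libraries bears on every PD difference, and the plot of marker sums shows that the PD libraries of the genotypes held different amounts of several cell types' transcripts. Over all genes past the filter, the median log2 difference at PD was 0.66 as deposited, -0.14 after quantile normalization and -0.30 with each library rescaled to the same median. Over the members it was 1.87, 0.64 and 1.04, above the median of all genes each time, and over all WT-cleared genes as deposited it was 2.78. Quantile normalization left 19 members called higher and 3 called lower (Hist1h1a, Pbx3 and Setdb2), where 18.7% of all genes were called higher and 26.8% lower. Equal medians left 25 higher and 1 lower (Setdb2), where 23.3% of all genes were called higher and 41.2% lower. The 10 members with a negative difference after quantile normalization were Defb45, Dusp12, Ext2, Gm5643, Hist1h1a, Nrip3, Pbx3, Pet2, Prdm9 and Setdb2. With equal medians these were 6, Ddb2, Defb45, Nrip3, Pbx3, Setdb2 and Uimc1.

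These values come from 2 libraries per group, and the p-values measure the spread between these samples. The members were picked by the same means that describe them, so part of their low f can come from the choice itself, which was not tested. Cnot4-null PD libraries differed in marker content from WT PD libraries, and FPKM carry no measure of total RNA per cell, so a level left over from decay, from transcription or from other cells cannot be told apart. The share of other cells in a sorted sample cannot be read from FPKM. Insl3, a Leydig marker, was at 9669 and 21607.5 FPKM in the Cnot4-null PD libraries, the highest value of any gene in each. In WT PD it was at 104 and 4.90 FPKM. What part such cells had in the PD values was not tested. The study stained its sorted cells for SYCP3 and pH2AX, and reports that this bore out their identity and purity. Overlapping genes and near-identical copies make single members uncertain.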

How the data were processed

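Values were measured by RNA-seq in 8 libraries, 2 for each of 4 groups assigned from the sample labels. The authors mapped reads to mm9 with TopHat2 2.1.1, per the submitters' processing notes, and deposited FPKM per gene symbol from Cufflinks 2.2.1. The files hold no counts, so counting error was not estimated; the steps of low values gave an uncertain relative depth. The study lists read totals, which were set beside this depth and entered no fit.

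From these FPKM, group means gave the members. The 15899 of 23235 symbols that passed 1 FPKM in some library were fitted as log2(FPKM + 1) with limma 3.58.1 in R 4.3.3 (4 groups, eBayes with a trend), with Benjamini-Hochberg adjustment over these genes for each contrast; a call is an adjusted p under 0.05. The fit was tested on simulated data, and no result given here rests on that. GENCODE vM1, of the mm9 assembly, gave positions and transcripts, with 21870 symbols matched. Python 3.11.15, numpy 2.4.6 and pandas 2.3.3 did the rest.

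The members and lists were chosen with earlier results of these data known. Named are members with the 10 highest WT LZ means, the 5 lowest and 5 highest Cnot4-null PD means, the 5 largest and 5 smallest PD differences, those in a list, and the 3 nearest the limit of f on each side. Alternatives changed the filter, the pseudocount, the scaling, the limits of the rule and the libraries used.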

Additional observations from a re-analysis of the deposited data

Results flagged for a closer look

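The genotype difference of a member was compared between the stages by a contrast of its own in limma, the log2 difference at PD minus that at LZ. It was called higher for 29 members at a Benjamini-Hochberg adjusted p under 0.05, beside 26% of all genes and 95.9% of the WT-cleared genes. After quantile normalization 7 members were called higher, beside 10.1% of all genes. As both stages entered the choice of the members, these values are descriptions.

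Of the 25 members named by rule, 12 were called. It differed by 3.15 for Tex13, 3.13 for Trap1a and 2.93 for Rhox13 on the log2 scale. It differed by 2.68 for 1700013H16Rik, 2.58 for Gm364, 2.57 for Fmr1nb and 2.53 for Tktl1. Tex11 differed by 2.41, Dmc1 by 2.1, Xlr4a by 2.09 and Tex16 by 1.93, and the smallest called was 1.77, for Zcwpw1. With Cnot4-null PD markers of Leydig cells and spermatids far above those of WT PD, their part in these differences was not tested.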

How the results depend on the processing

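Under quantile normalization 22 members were called at PD (45.4% of all genes, in either direction) and 7 for a difference between the stages (22.8%), and with each library rescaled to the same median 26 (64.5%) and 15 (46.8%); as deposited 53.1% and 30% of all genes were. The median log2 difference of members at PD was 0.64 and 1.04 under these scalings, and 2.86 with a pseudocount of 0.1. Changing the filter or the pseudocount, or taking replicate number as a block, gave 40 or 41 members called at PD by limma. Of all genes, 42.3% to 55.8% were called there, in either direction. At LZ these settings gave 0 members, beside 0.0658% to 0.139% of all genes. As the rule used these values, nothing is read from the counts. The cause of the changes under the scalings and the pseudocount was not tested.

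The number of members was 22 with f at most 0.10, 94 with f at most 0.20, 79 with WT LZ of at least 10 FPKM, 20 with at least 50, 90 with WT PD of at most 1/5, 96 after quantile normalization, 109 with equal medians and 88 with replicate 1 alone. Members on the X numbered 9 with f at most 0.10, 10 with WT LZ of at least 50 FPKM and 32 with equal medians. Median transcript features over all coding transcripts of a gene were 1540 bases, 100 of 5′UTR, 891 of coding sequence, 324.5 of 3′UTR and 46.6% GC.

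Shares of all genes in this paragraph count calls in either direction, including the share beside members called lower. With all libraries, 18.2% of all genes were called lower in Cnot4-null PD than LZ, and 46% in either direction. Leaving out each library in turn leaves a group of 1, assumed to vary like the other groups. It gave 32 to 40 members called at PD (25.7% to 63.9% of all genes, in either direction), 0 to 0 at LZ (0.0567% to 0.158%), 45 to 46 called lower in Cnot4-null PD than LZ (29.4% to 54.1%), 13 to 32 for the difference between the stages (10.9% to 51.1%; 19 without Cnot4-null LZ replicate 2, 15 and 13 without WT PD replicate 1 and 2), a median of 1.85 to 1.94, 35 to 71 members (71 without Cnot4-null PD replicate 2) and 14 to 25 on the X.

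With replicate number as a block, 40 members were called at PD (52.2% of all genes), 0 at LZ (0.101%), 46 between the Cnot4-null stages (44.8%) and 29 for the difference between them (27.4%). These shares of all genes also count calls in either direction. Deviations of same-numbered libraries had correlations between -0.0651 and 0.194, the highest between Cnot4-null LZ and Cnot4-null PD. With 2 libraries per group these do not settle whether libraries of the same number were paired.

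After seeing the data, 5 members of doubtful identity or denominator (Defb45, Gm5643, Hist1h4d, Tex13 and Xlr4a) were left out. Of the 42 others 37 were called at PD, 42 between the Cnot4-null stages and 27 for the difference between them, 17 were on the X (40.5%), and the median log2 difference was 1.87. Leaving out 6430706D22Rik as well gave 41 members, 37 of them called at PD, 41 between the Cnot4-null stages and 27 for the difference between them, with 17 on the X (41.5%). Of all genes tested, 41.6% were called higher at PD, 18.2% lower in Cnot4-null PD than LZ and 26% higher for the difference between the stages. As the rule used these values, nothing is read from the counts of members called. Without Defb45 alone there were 46 members, 20 of them X-linked. The files hold no counts, so no limit from counting error is given.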
